A study of Mus musculus with 3 samples.

Results

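The mark H3K36me3 on neuropilin, semaphorin and plexin genes was compared between splenic and large intestinal (LI) regulatory T (Treg) cells. There were 8 such genes: the neuropilins Nrp1 and Nrp2, the semaphorins Sema4a, Sema4b, Sema4d and Sema7a, and the plexins Plxnd1 and Plxnb2. They were chosen by family, with the spleen and LI values of these same libraries already known, so every difference below is a description without a test. Peaks of the deposited table were given to a gene when their midpoint lay in its annotated body, and 6 of the 8 genes had peaks, 182 of the 120910 peaks in all. Nrp2 and Sema7a had 0 peaks, as had 54.3% of the 21951 annotated protein-coding genes.

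Both tissues came from C57BL/6 mice, adult by the general age range of the study, of the genotype Foxp3-YFP, in which the Treg lineage gene Foxp3 drives Cre fused to a yellow fluorescent reporter, at steady state and with no Setd2 deletion. CD3+CD4+YFP+ cells were sorted, with 14 mice pooled (7 of each sex), and 1 µg of chromatin was used in each immunoprecipitation. Each tissue had 1 library, so there was no replicate check. An input library of splenic Treg chromatin was not analysed here. Values are mean RPKM (coverage normalised to length and library depth) in a peak, scaled so that both libraries have the same total over all peaks, and a gene's value is the sum over its peaks. From the smallest steps between values, about 29630000 reads had been mapped for spleen and 38100000 for LI. Of the Treg markers Foxp3, Il2ra, Ctla4, Ikzf2, Cd3e and Cd4, 6 of 6 carried the mark in both libraries.

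Semaphorins are guidance proteins, secreted or held in the membrane, and plexins are their signalling receptors. Neuropilins have short cytoplasmic tails and act as co-receptors, with plexins for secreted class 3 semaphorins and with VEGF receptors for VEGF. Nrp1 marks mouse Treg cells of thymic origin, and Sema4a on neighbouring cells is a ligand of Nrp1 on Treg cells. H3K36me3 is laid down by Setd2 along genes during transcription elongation and builds up towards the gene end.

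To show what the measured regions are, 4 short peaks are printed in full from mm10, in the direction of the gene, with exon bases in capitals. Each was the peak with the highest summed signal among peaks of at most 300 bp that touch no untranslated region in that gene. The peak in Nrp1 (chr8:128372686-128372930, plus strand) is intronic and had 15.2 RPKM in spleen and 6.38 RPKM in LI. The peak in Sema4a (chr3:88449341-88449592, minus strand) is intronic too and had 16.3 and 4.08 RPKM. The peak in Plxnd1 (chr6:115978444-115978710, minus strand) holds 132 exon bases and had 13.6 RPKM in both libraries. The peak in Plxnb2 (chr15:89167400-89167668, minus strand) lies wholly in coding sequence, with 5.58 RPKM in spleen and 12.6 RPKM in LI. The sequences also differ in base composition: they hold 2, 3, 5 and 22 CpG dinucleotides in the order given, and their GC content was 46.9%, 49.6%, 57.7% and 64.7%.
Nrp1: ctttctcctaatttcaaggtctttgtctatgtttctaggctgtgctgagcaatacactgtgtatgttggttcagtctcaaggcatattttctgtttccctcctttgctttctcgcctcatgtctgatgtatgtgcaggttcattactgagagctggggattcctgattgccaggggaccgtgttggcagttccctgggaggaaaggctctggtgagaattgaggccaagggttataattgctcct
Sema4a: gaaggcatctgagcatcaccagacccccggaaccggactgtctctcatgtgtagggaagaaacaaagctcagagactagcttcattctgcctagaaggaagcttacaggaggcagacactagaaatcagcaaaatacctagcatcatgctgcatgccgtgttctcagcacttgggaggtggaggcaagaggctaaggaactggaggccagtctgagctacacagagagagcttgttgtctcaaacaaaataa
Plxnd1: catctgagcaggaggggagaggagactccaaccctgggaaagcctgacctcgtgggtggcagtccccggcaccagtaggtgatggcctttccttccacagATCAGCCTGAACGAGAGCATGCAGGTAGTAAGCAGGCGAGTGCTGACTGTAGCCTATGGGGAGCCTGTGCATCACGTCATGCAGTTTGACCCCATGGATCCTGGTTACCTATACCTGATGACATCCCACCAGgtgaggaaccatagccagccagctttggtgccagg
Plxnb2: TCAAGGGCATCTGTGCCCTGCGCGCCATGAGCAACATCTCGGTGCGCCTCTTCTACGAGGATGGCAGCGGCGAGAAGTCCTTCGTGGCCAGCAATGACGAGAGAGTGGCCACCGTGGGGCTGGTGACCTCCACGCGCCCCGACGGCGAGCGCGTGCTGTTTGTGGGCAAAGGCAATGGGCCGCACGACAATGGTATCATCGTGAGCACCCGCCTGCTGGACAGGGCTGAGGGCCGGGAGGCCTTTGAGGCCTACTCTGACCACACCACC

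The genes fell on both sides of 0. Nrp1 and Sema4a carried less H3K36me3 in LI Treg cells than in splenic Treg cells, Plxnd1 and Plxnb2 carried more, Sema4b slightly more, and Sema4d had nearly equal signal. More than 2-fold higher signal in spleen was seen for 2 of the 6 genes with peaks, against 1.81% of the 9456 coding genes that reached 20 RPKM when both libraries were added. More than 2-fold higher signal in LI was seen for 1 of 6, against 3.24% of the same coding genes. The approximate 95% counting interval, which covers counting error only, lay below 0 for 2 and above 0 for 3 of the 6 genes, against 15.9% and 18.5% of coding genes. Since these genes were picked with the contrast in view, nothing is read from these counts. The median log2 ratio of LI over spleen was 0.16 over the 6 genes and 0.00 over all coding genes tested, and the middle 50% of the latter lay between -0.20 and 0.23.

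**Figure D1:**
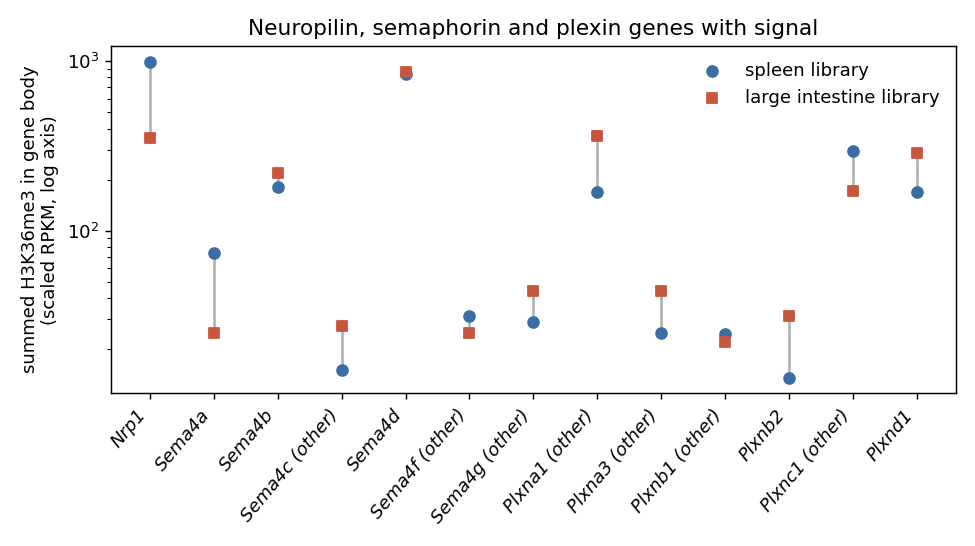
Summed H3K36me3 in the gene body (scaled RPKM, log axis) in the spleen library (circles) and the LI library (squares) for the 13 neuropilin, semaphorin and plexin genes with at least 20 RPKM; genes marked "other" belong to the families but not to the 8 genes described in depth. Nrp1 falls from 990.0 to 349.6 RPKM, whereas Sema4d has 842.8 and 864.5 RPKM.

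Nrp1, the neuropilin, had the most peaks of the 8 genes, ahead of Sema4d with 64. Its body (ENSMUSG00000025810.9, chromosome 8, 128358604 to 128503363, plus strand, 144760 bp) held 79 peaks that covered 41.5% of it. The summed level was 990.0 RPKM for spleen and 349.6 RPKM for LI, 2.83-fold higher in spleen, with a log2 ratio of -1.50 (counting interval -1.64 to -1.36). All 79 peaks were higher in spleen, 64 of them over 2-fold (81.0%). Over all peaks of the series, 51% were higher in spleen and 9.6% were so over 2-fold. In single peaks of Nrp1 the level ran from 6.10 to 24.7 RPKM in spleen, with a median of 12.3, and from 0 to 10.7 RPKM in LI, with a median of 4.13. The levels of the libraries therefore overlapped across peaks, but 56 of the 79 spleen values lay above the highest LI value.

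Coding genes in which every peak is higher in spleen are uncommon: 2.65% of the 5953 coding genes with 5 or more peaks were of that kind, and Nrp1 and Sema4a were both among them. By the ratio, Nrp1 stood at position 45 from the lowest of 9456 coding genes, and at position 9 of the 4165 with at least 200 RPKM. The 3 genes just below it in that order were Aff3 (-1.53), Itih5 (-1.51) and Patj (-1.50), and the 3 just above it were Nod1 (-1.48), Fry (-1.40) and Ift80 (-1.40). The counting intervals of all 6 overlapped that of Nrp1. With 2 libraries, the ratio is the only pattern in which genes can be alike.

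The difference ran along the whole of Nrp1. Distances of peaks are those of their midpoints. The first peak lay 5.77 kb past the gene start, and the last, in the 3' untranslated exon, 144.3 kb past it. The body was cut into 5 sections of equal length. Averaged over all bases, the first section had 3.77 RPKM in spleen and 1.22 RPKM in LI, the second section 0.41 and 0.087 RPKM, and the third section 8.52 and 3.06 RPKM. In the fourth section the means were 8.14 and 3.52 RPKM, and in the last section 7.77 and 3.04 RPKM. Spleen was thus higher in each section, with log2 ratios from -2.23 to -1.21, and the sparse second section, with 4 peaks, had the most negative value. The widest stretch between neighbouring peaks, 14.0 kb, ran from 20.5 to 34.4 kb past the start. Both libraries shared this outline, a marked first stretch, a poorly marked one and a marked second part. Neither thus followed the mean of all coding genes, which rose from each section to the next.

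Nearly all peaks of Nrp1, 71 of 79, had their midpoint in introns. The median log2 ratio of intron peaks was -1.47, and that of the 7 peaks in exons of non-coding transcripts was -1.30. Long peaks are measured more precisely than short ones. The 18 peaks of 1 kb or more had a median ratio of -1.34, ranged from -1.71 to -0.89 and had an SD of 0.24 between peaks, with a median counting error of 0.29. In the 61 shorter peaks the median was -1.51, the SD 0.75 and the median counting error 0.67. The longest peak (4020 bp, 77.3 kb past the start) had 17.9 RPKM in spleen and 6.83 RPKM in LI. The last peak (2006 bp) had 21.4 and 8.05 RPKM. A peak 64.5 kb past the start was listed at 0 in LI and at 10.3 RPKM in spleen. The peaks nearest to equal levels were short: the highest ratio, -0.09, belonged to a peak of 260 bp with 7.25 and 6.77 RPKM.

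**Figure D2:**
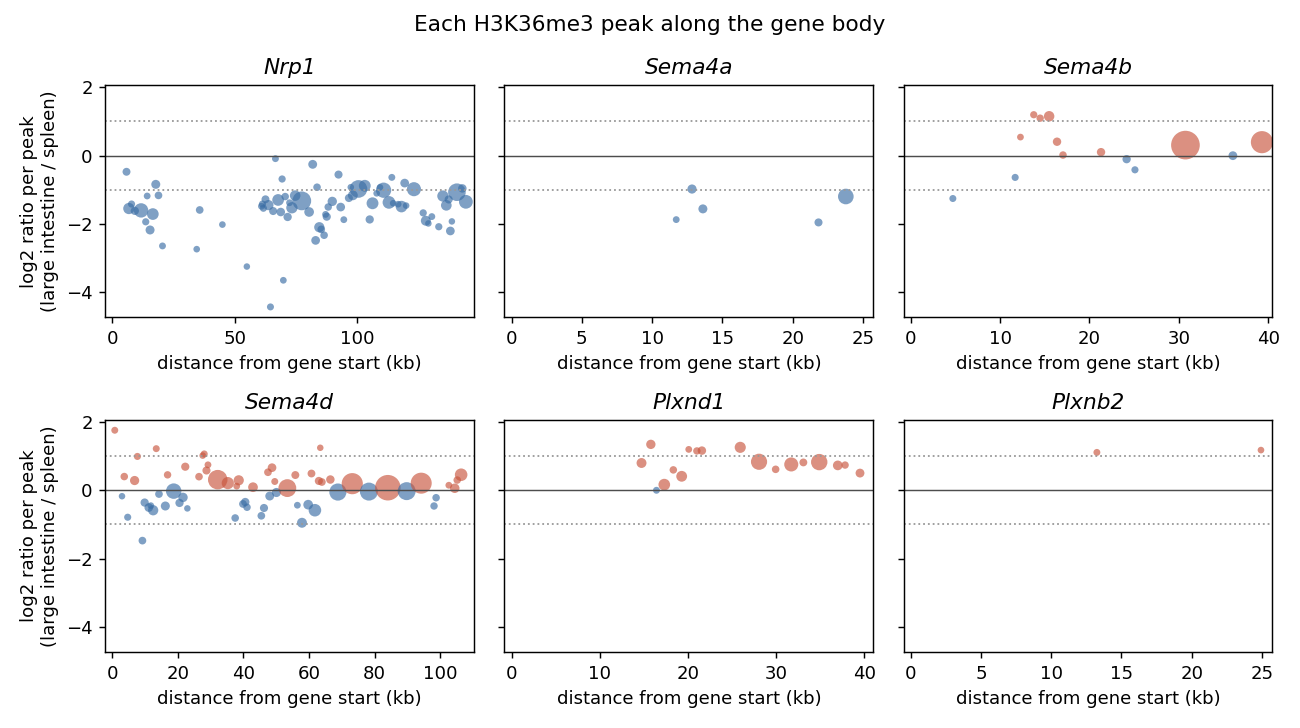
Log2 ratio of LI over spleen (y axis) of each peak against its distance from the gene start in kb (x axis) for the 6 genes with peaks; the point area grows with peak length, colour shows which library is higher and dotted lines mark 2-fold. All 79 points of Nrp1 and all 5 of Sema4a lie below 0, 17 of 18 points of Plxnd1 lie above it, and those of Sema4d scatter around it.

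Outside Nrp1 the table was empty for long stretches. The nearest peak upstream lay 1388 kb away, and the nearest downstream lay 202.9 kb away, inside Itgb1. Itgb1, the next marked gene downstream, encodes the integrin beta1 chain, part of a Sema7a receptor. It had 223.6 RPKM in spleen and 99.8 RPKM in LI over 17 peaks, a log2 ratio of -1.16 (-1.39 to -0.94), and 16 of its peaks were higher in spleen. Rbm34, the next marked coding gene upstream, had 140.4 and 151.9 RPKM and a ratio of 0.11 (-0.07 to 0.30). Ikzf2, which encodes Helios, another marker of thymic Treg cells, had 1224 RPKM in spleen and 837.5 RPKM in LI, a ratio of -0.55 (-0.66 to -0.44). Its part in the Nrp1 difference was not tested. In these bulk libraries, fewer cells with the mark and less mark per cell cannot be told apart.

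Nrp2, the co-receptor for Sema3f and VEGF-C, had 0 peaks in its 115411 bp (ENSMUSG00000025969, chromosome 1, 62703285 to 62818695, plus strand). The peaks nearest to it lay 1702 kb upstream and 232.3 kb downstream, so the table gave no value for this gene in either tissue. Of the marked coding genes on either side, Icos had a ratio of 0.78, with an interval above 0, and Ino80d one of -0.05 (-0.18 to 0.08). In this table the neuropilin signal of Treg cells came from Nrp1 alone.

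Among the semaphorins, Sema4a, the membrane-bound Nrp1 ligand, also had less signal in LI. Its body (chromosome 3, 88435959 to 88461182, minus strand) held 5 peaks. In spleen the peaks had, from the gene start on, 16.3, 11.1, 13.7, 13.0 and 19.8 RPKM. In LI the same peaks had 4.08, 5.38, 4.30, 2.98 and 8.35 RPKM. Every spleen value was above every LI value. Summed, the levels were 74.0 and 25.1 RPKM, 2.91-fold higher in spleen, with a log2 ratio of -1.54 (-1.98 to -1.10). The peaks formed 2 groups, 11.7 to 13.6 kb and 21.8 to 23.8 kb past the start, and the first had its midpoint at 46.4% of the body.

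The genes beside Sema4a did not share its direction. Lmna, 19.0 kb upstream, which encodes nuclear lamins A and C, had 50.9 RPKM in spleen and 155.5 RPKM in LI, a ratio of 1.60 (1.23 to 1.97). Slc25a44, 10.8 kb downstream, had 104.3 and 117.5 RPKM, a ratio of 0.17 (-0.04 to 0.38). The lower signal in LI thus stood between a gene with higher signal in LI and one with an interval that included 0. Although Sema4a and Nrp1 had nearly the same ratio, they differed in level: per base of body, spleen had 3.20 RPKM on Sema4a and 5.80 RPKM on Nrp1, and LI had 1.25 and 2.22 RPKM.

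Sema4d (CD100), which T cells display and which binds plexin-B1 and CD72, was the most evenly marked of the 8 genes. Its 64 peaks covered 62.8% of the body (chromosome 13, 51685529 to 51793747, minus strand). The summed level was 842.8 RPKM in spleen and 864.5 RPKM in LI, a log2 ratio of 0.04 (-0.07 to 0.14), so a difference could not be detected at this depth. The interval covers counting error only, so it sets no limit on the difference between the tissues. After the correction for base composition given below, the ratio was -0.10, outside this interval. Of the peaks, 30 were higher in spleen and 34 in LI. Over 2-fold, 1 peak was higher in spleen and 5 in LI (7.81%, against 9.05% of all peaks), and each of these was shorter than 1 kb. The 12 peaks of 1 kb or more ranged from -0.58 to 0.45. The longest (7681 bp) had 29.8 RPKM in spleen and 31.4 RPKM in LI.

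Both libraries placed the Sema4d mark in the same way. Averaged over bases, the signal was 6.05 RPKM in the first section and 23.3 RPKM in the fourth section in spleen, and 5.48 and 24.4 RPKM in LI. It was lower again in the last section, at 16.0 and 17.3 RPKM. The first peak, 0.74 kb past the start, had the highest ratio, 1.76, from 3.98 RPKM in spleen and 14.7 RPKM in LI, over only 271 bp. Secisbp2, 1.49 kb downstream of Sema4d, had 166.9 and 195.2 RPKM and a ratio of 0.23 (0.10 to 0.36). Gadd45g, 52.9 kb upstream, had 16.1 and 35.6 RPKM in 3 peaks, a ratio of 1.12 (0.19 to 2.06).

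Sema4b, another membrane-bound class 4 semaphorin, had slightly more signal in LI. Its 14 peaks (chromosome 7, 80186841 to 80226527, plus strand) summed to 180.9 RPKM in spleen and 218.8 RPKM in LI, a log2 ratio of 0.27 (0.06 to 0.48). Single peaks lay on both sides of 0. The first 2 peaks, of 283 and 298 bp, were higher in spleen, with ratios of -1.26 and -0.64. Their counting errors were 0.67 and 0.62, so a change of direction along the gene is not established. From 12.3 to 21.3 kb past the start, 7 peaks were higher in LI, and 3 of them were so over 2-fold. Among these, a peak of 1027 bp had 11.1 RPKM in spleen and 25.1 RPKM in LI. Peaks 24.2, 25.1 and 36.1 kb past the start had ratios of -0.11, -0.42 and -0.005. Most of the mark lay near the end, in a domain of 9767 bp with 31.0 and 38.4 RPKM and in a peak of 5689 bp at the end of the gene with 22.0 and 29.0 RPKM. Per base of body, Sema4b was the most strongly marked of the 8 genes in LI, with 15.5 RPKM, followed by Sema4d with 12.3 RPKM. In spleen they had 12.2 and 11.8 RPKM. The neighbours of Sema4b, Idh2 (0.03, -0.33 to 0.39) and Cib1 (-0.27, -1.29 to 0.74), had intervals that included 0.

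**Figure D3:**
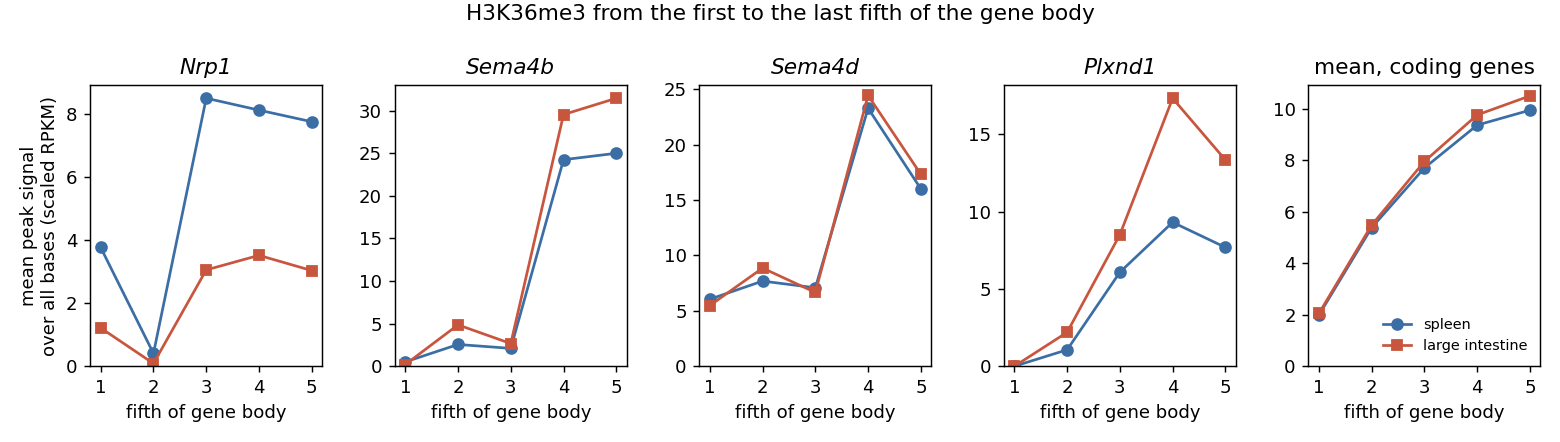
Mean peak signal over all bases (scaled RPKM, y axis, each panel with its own scale from 0) in each of 5 equal sections of the gene body from start to end, for 4 genes and for the mean of the 9456 coding genes tested, in spleen (circles) and LI (squares). Nrp1 has a dip in the second section in both libraries, Sema4b and Sema4d rise steeply in the fourth section, and in Plxnd1 the libraries differ by the most RPKM in the fourth section (9.31 and 17.3 RPKM).

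Sema7a, a semaphorin with a lipid anchor that binds plexin-C1 and integrins, had 0 peaks in its 22754 bp (chromosome 9, 57940112 to 57962865, plus strand). The nearest peaks lay 9.003 kb upstream, where 15.9 RPKM was found in spleen and 7.08 RPKM in LI, and 182.9 kb downstream. The upstream peak lay between Sema7a and the end of Ubl7, which had 92.5 and 94.5 RPKM and a ratio of 0.03 (-0.18 to 0.24). Downstream, Pml had a ratio of -0.09 (-0.30 to 0.12).

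Among the plexins, Plxnd1, a receptor for Sema3e and Sema4a, had more signal in LI. Its 18 peaks (chromosome 6, 115954811 to 115995005, minus strand) summed to 169.6 RPKM in spleen and 286.4 RPKM in LI, 1.69-fold higher in LI, with a log2 ratio of 0.75 (0.56 to 0.95). In spleen the peaks ran from 3.65 to 15.4 RPKM with a median of 8.06, and in LI from 8.69 to 25.4 RPKM with a median of 14.3. Of the 18 peaks, 17 were higher in LI, and the exon peak printed above was the one with equal values. Over 2-fold, 5 peaks were higher in LI (27.8%, against 9.05% of all peaks). Over all peaks of the series, 51% were higher in spleen. All 6 peaks of 1 kb or more were higher in LI, with ratios from 0.17 to 1.26. The longest (2976 bp) had 11.6 RPKM in spleen and 20.9 RPKM in LI.

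The mark of Plxnd1 began late. The first peak had its midpoint 14.7 kb past the start, at 36.7% of the body. The mean level was 1.06 RPKM in spleen and 2.20 RPKM in LI in the second section, and 9.31 and 17.3 RPKM in the fourth section. Where exon and intron peaks were compared, the 13 intron peaks had a median ratio of 0.81 and the 4 coding exon peaks one of 0.68. A further peak lay 1.62 kb past the gene end, with 3.04 RPKM in spleen and 14.5 RPKM in LI. Tmcc1, the next marked gene upstream, had 98.2 and 80.4 RPKM and a ratio of -0.29 (-0.68 to 0.11). Mbd4, the next downstream, had 26.4 and 37.8 RPKM and a ratio of 0.51 (-0.17 to 1.18). Both intervals included 0.

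Plxnb2, a receptor for class 4 semaphorins, had only 2 short peaks (chromosome 15, 89155549 to 89180788, minus strand), which covered 1.95% of its body. The peak in the coding exon printed above had 5.58 RPKM in spleen and 12.6 RPKM in LI, and the peak in the 3' untranslated exon had 8.05 and 18.8 RPKM. Both were over 2-fold higher in LI, and together they gave a log2 ratio of 1.18. The counting interval was wide, from 0.15 to 2.20. Per base of body the gene had 0.13 RPKM in spleen and 0.30 RPKM in LI, against medians of 4.82 and 4.94 RPKM over all coding genes tested. Its neighbours did not differ detectably: Dennd6b, 1.43 kb upstream, had a ratio of 0.03 (-0.33 to 0.39) and Mapk11, 5.92 kb downstream, one of 0.00 (-0.42 to 0.42).

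Of the other 23 genes of the 3 families, 8 had a peak and 7 had at least 20 RPKM. Plxna1, a plexin that signals with neuropilins, had 169.7 RPKM in spleen and 362.4 RPKM in LI over 24 peaks, a log2 ratio of 1.09 (0.87 to 1.31), and 23 peaks were higher in LI. Plxnc1, the plexin that binds Sema7a, went the other way, with 294.5 RPKM in spleen and 171.3 RPKM in LI in 26 peaks, a ratio of -0.78 (-1.01 to -0.55). Sema4c (0.83), Plxna3 (0.81) and Sema4g (0.61) had intervals above 0 over 2 to 4 peaks each. Sema4f (-0.34) and Plxnb1 (-0.16) had intervals that included 0. The secreted class 3 semaphorins, the ligands of neuropilin and plexin-A pairs, had 0 peaks in 7 of 7 genes. Over all 13 genes of the families with enough signal, 8 were higher in LI and 5 in spleen. The interval lay below 0 for 3 of them (Plxnc1, Sema4a and Nrp1) and above 0 for 7, against the same 15.9% and 18.5% of coding genes. Counts of directions and intervals here are from before the correction for base composition given below and were not made again after it. That correction took Sema4d to -0.10 and Sema4b to 0.10.

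**Figure D4:**
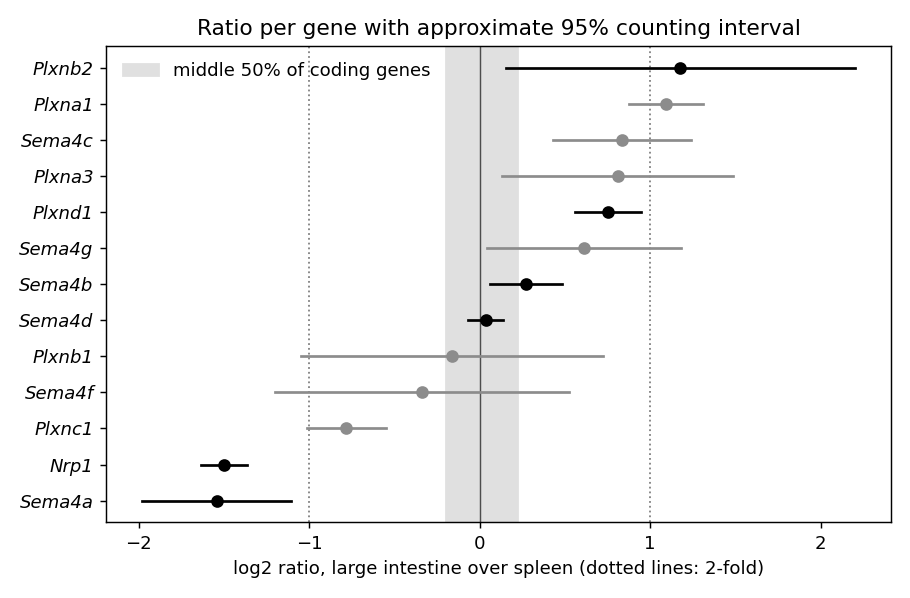
Log2 ratio of LI over spleen (x axis) with the approximate 95% counting interval (bars) for the 13 family genes with at least 20 RPKM; the 6 genes described in depth are black and the 7 others grey, the shaded band holds the middle 50% of coding genes and dotted lines mark 2-fold. Nrp1 (-1.50) and Sema4a (-1.54) stand apart at the low end, and Plxnb2 (1.18) and Plxna1 (1.09) at the high end.

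Partners of the pathway were read from a list of 29 genes, of which 18 had at least 20 RPKM. Of these, 1 was over 2-fold higher in spleen (Itgb1, above) and 3 were over 2-fold higher in LI, against 1.81% and 3.24% of all coding genes. Farp1, a guanine nucleotide exchange factor that works with class A plexins, had 133.4 RPKM in spleen and 331.1 RPKM in LI, a log2 ratio of 1.31 (1.04 to 1.58), with all 23 peaks higher in LI. Rhod, a small GTPase that binds plexins, had a ratio of 1.00 (0.17 to 1.83) over 3 peaks, and Vegfb, a VEGF that binds Nrp1, had 1.00 (-0.15 to 2.16) in 1 peak. Over the 18 genes, 5 were higher in spleen and 13 in LI, and the median ratio was 0.32, against 0.00 over all coding genes tested. The interval lay below 0 for 2 and above 0 for 9, against 15.9% and 18.5% of coding genes. These counts and this median are from before the correction for base composition given below. The next 5 genes were singled out for their roles after their values were seen. The exchange factors of class B plexins, Arhgef12 (0.55, 0.39 to 0.71) and Arhgef11 (0.33, 0.15 to 0.51), were higher in LI too. Akt1, a kinase that acts downstream of many surface receptors, had 85.2 RPKM in spleen and 107.0 RPKM in LI, a ratio of 0.33 (0.22 to 0.43). Gipc1, which binds the tail of Nrp1, had nearly equal levels of 53.5 and 54.4 RPKM (0.02, -0.56 to 0.61). Tgfb1, whose product binds Nrp1, had a ratio of 0.37 (0.02 to 0.73). Cd72, a Sema4d receptor, had one of 0.31 (0.08 to 0.55) in a single peak. The VEGF receptors Kdr, Flt1 and Flt4 had no peak.

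The ratio of a peak moved with its base composition across the table. The 5% of peaks poorest in GC had a median of -0.53, and the 5% richest in GC one of 0.35. The median GC content of peaks was 43.3% in Nrp1, 50.2% in Sema4a, 51.1% in Sema4d, 53.6% in Sema4b, 57.3% in Plxnd1 and 63.4% in Plxnb2, and it was 46.5% over all peaks. With each peak corrected for the median ratio at its GC content, Nrp1 went from -1.50 to -1.37 and Sema4a from -1.54 to -1.72. Plxnd1 went from 0.75 to 0.46, Plxnb2 from 1.18 to 0.83, which is under 2-fold, and Sema4b from 0.27 to 0.10. Sema4d went from 0.04 to -0.10. The order from lowest to highest was then Sema4a, Nrp1, Sema4d, Sema4b, Plxnd1 and Plxnb2, as it was before the correction. Among the 9456 coding genes, Nrp1 moved from position 45 to position 81 from the lowest, and Sema4a from 38 to 32. In the other genes of the families, Plxna1 went from 1.09 to 0.80, under 2-fold and below its counting interval, Sema4c from 0.83 to 0.54, Plxna3 from 0.81 to 0.55 and Sema4g from 0.61 to 0.35. Plxnc1 hardly moved, from -0.78 to -0.80. Of the 4 partners past 2-fold, Farp1 (1.15) stayed past it, whereas Itgb1 (-0.88), Rhod (0.93) and Vegfb (0.66) did not. Akt1 went from 0.33 to 0.04, Cd72 from 0.31 to 0.08 and Tgfb1 from 0.37 to 0.16. Arhgef11 went from 0.33 to 0.24 and Gipc1 from 0.02 to -0.28, whereas Arhgef12 rose from 0.55 to 0.60. Ordered by the corrected ratio, the middle of the 18 partners lay between Akt1 (0.04) and Cd72 (0.08). The corrected median over all coding genes tested was -0.02. Directions of the partners were not counted again after the correction, although some, Gipc1 among them, changed from above to below 0. With peaks weighted by length, Tgfb1 had 0.10, and Rhod (0.98) and Vegfb (0.92) were under 2-fold too.

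**Figure D5:**
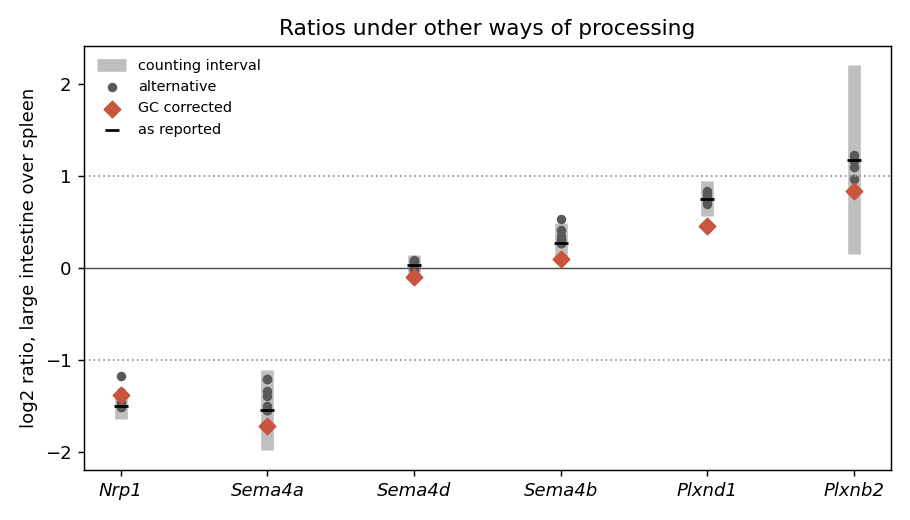
Log2 ratio of LI over spleen (y axis) of the 6 genes as reported (black dash), with its counting interval (grey bar), after GC correction (diamond) and under the other alternatives (dots); dotted lines mark 2-fold. Every value of Nrp1 and Sema4a lies below -1, and the diamond of Plxnd1 (0.46) lies below its grey bar.

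Other cell types that express these genes were checked by their markers. Nrp1, Nrp2 and Plxnd1 are also known from endothelium: of 6 endothelial markers only Pecam1, which T cells express too, had peaks, with 925.4 RPKM in spleen and 491.8 RPKM in LI, and Cdh5, Kdr, Tek, Emcn and Vwf had none. Of 3 markers of plasmacytoid dendritic cells, 0 had a peak. Of 6 B cell markers, Cd79a, Cd79b and Pax5 had peaks, with a sum of 61.2 RPKM in spleen and 52.6 RPKM in LI over the list. Cd79a was higher in spleen, with 48.0 and 29.3 RPKM, a ratio of -0.70 (-1.32 to -0.08). Cd79b, with 9.10 and 13.5 RPKM, had a ratio of 0.54 (-0.06 to 1.14), and Pax5 had 4.12 and 9.76 RPKM. Ms4a1 and Ebf1 had no peak. Of 6 myeloid markers, Csf1r and Cd68 had 1 peak each, with sums of 30.2 and 30.9 RPKM, and Lyz2, Itgam and Adgre1 had none. Of 7 epithelial markers, Epcam and Vil1 had peaks, with sums of 30.4 RPKM in spleen and 58.9 RPKM in LI, and Krt8, Krt20, Cdh1, Cdx2 and Muc2 had none. Both were higher in LI: Epcam had a ratio of 0.84 (0.23 to 1.46) over 5 peaks, and Vil1 had 4.70 and 12.4 RPKM in 1 peak. Cd8b1 had 21.4 and 9.31 RPKM, and Cd8a had no peak. The part of such cells in the values above was not tested.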

How the data were processed

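H3K36me3 ChIP-seq was run once on pooled splenic and once on pooled LI Treg cells. Per the study's methods, the authors mapped the 75-nt single-end reads to mm10, called peaks in each tissue with MACS2 (p threshold 0.01) against input, merged the peaks with bedtools and averaged RPKM tracks over each merged peak. The deposited table, although named as raw counts, thus holds RPKM. In spleen, value times peak length was a whole multiple (within 0.05) of 1.69 RPKM times bp in 99.995% of peaks with low products. In LI it was one of 1.31 RPKM times bp in 100% of such peaks. With 20-bp bins these steps give the depths. Tool versions are not given in the sources used here.

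Peaks (0 of 21 chromosomes had one past its end in GRCm38) were given to GENCODE M21 genes by midpoint with Python 3.11.15. Columns were scaled to equal totals, and peak values were summed per gene. The log2 ratio used a pseudocount of 0.5 RPKM, which understates changes of low genes. Genes needed 20 RPKM over both libraries. Counting intervals took each read as 200 bp and as an independent molecule. Their calculation was checked on libraries simulated under the same assumptions, which does not test those assumptions. No test was planned or made, as each tissue has 1 library. The members, lists and alternatives were chosen with earlier results of these data known. Named genes were the 8 genes, the other family genes, partners past 2-fold or known as receptors, the nearest marked coding neighbours and the 3 genes on either side of Nrp1 by ratio. Another 5 partners were named outside this rule, after their values were seen. Sequence and GC content came from the RefSeq copy of GRCm38.p6, the assembly of mm10. Some listed genes are not reported here by name.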

Additional observations from a re-analysis of the deposited data

How the results depend on the processing

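Of 59 recomputed ratios of the 6 genes with peaks, 54 lay inside the counting interval of the reported value, 5 lay outside it and 0 of those with an interval away from 0 changed sign. Nrp1 ranged from -1.51 to -1.17, Sema4a from -1.72 to -1.20, Plxnd1 from 0.46 to 0.83, Plxnb2 from 0.83 to 1.22, Sema4b from 0.10 to 0.53 and Sema4d from -0.10 to 0.08. The strongest peak alone gave -1.17 for Nrp1, and peaks of 1 kb or more gave -1.34 for Nrp1 and 0.53 for Sema4b. GC correction gave -0.10 for Sema4d and 0.46 for Plxnd1. Sema7a had a value only with peaks given to the nearest transcript start, -0.39 from 2 peaks; Nrp2 had none, and Plxnb2 had no peak of 1 kb or more. Coding genes over 2-fold higher in spleen and in LI numbered 171 and 306 of 9456 as reported. They numbered 32 and 108 of 7172 with peaks of 1 kb or more, and 307 and 470 of 10037 with no minimum. With at least 200 RPKM they numbered 37 and 68 of 4165. These settings change which peaks and genes are counted. The cause of the shifts in ratios and counts was not tested. No paired analysis was possible because each tissue had 1 library. Depth limits Plxnb2 most, whose 2 short peaks left an interval from 0.15 to 2.20.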
